A study of Mus musculus with 8 samples.

Results

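H19, Meg3, Rian, Malat1, Neat1 and Gas5 are 6 long noncoding RNAs that were described by name in C2C12 myoblasts, 6 of 27179 genes in the expression table. They were taken by Entrez identifier matched to RefSeq symbols. The filter on low values, at least 2 cpm, which is 25.1 on the deposited scale, in at least 2 libraries, was passed by 4 of the 6 and by 11406 genes in all. Meg3 and Rian did not pass it. C2C12 is an immortalised mouse myoblast line grown on collagen. GM samples were taken during proliferation, from subconfluent dishes in high-glucose medium with fetal bovine serum, and 3d DM samples 3 days after near-confluent dishes were moved to medium with a low share of horse serum, in which myoblasts leave the cell cycle and fuse. Each state had 2 input libraries, made from poly(A)-selected and fragmented RNA that had not been immunoprecipitated, and 2 libraries of the same kind after m6A immunoprecipitation. Both states come from 1 cell line, no genotype or drug was varied, and the sources do not say that replicates were separate cultures. The p-values below thus reflect only spread between these samples, which the main test pools over genes of like intensity.

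The 6 RNAs fall into 3 kinds. H19, Meg3 and Rian are imprinted, meaning that only the maternal chromosome transcribes them. H19 lies beside Igf2, which is read from the paternal chromosome, and is one of the abundant transcripts of embryonic and regenerating muscle, while Meg3 and Rian lie in the Dlk1-Dio3 domain, whose paternal genes are Dlk1, Rtl1 and Dio3. Malat1 and Neat1 are neighbouring nuclear RNAs: Malat1 gathers in nuclear speckles, where splicing factors are stored, and the long form of Neat1 is the scaffold of paraspeckles. Gas5, growth arrest-specific 5, hosts small nucleolar RNAs in its introns, has an exonic transcript that is translated briefly and then destroyed, and is known for accumulating when growth stops.

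Values were normalised gene values on which every library had been brought to nearly the same total, 12534700 to 12536200, so the read depth behind a value is unknown. A single entry, Entrez 100861531, took 24.4% to 41.3% of each total. The median gene was displaced by -0.22 on the log2 scale in 3d DM, and rescaling each library to its typical gene moved 3d DM against GM by 0.23. Differences below are log2(value + 1) of 3d DM minus GM, with the limma standard error (SE), and a gene was called at an adjusted p under 0.05. On this scale 800 tested genes were called higher and 1136 lower, and after median-of-ratios rescaling 1366 higher and 1281 lower. Calls thinned when 1 library was left out, over all tested genes and over the gene lists. With all libraries the lists held 12 calls higher and 15 lower. Of these, 5 and 3 were genes chosen to check proliferation and differentiation, a list not described below. All 6 myotube markers were called higher in 3d DM, and they summed to 4929 and 1115 in GM replicates 1 and 2, against 88845.7 and 127255 in 3d DM replicates 1 and 2. GM replicate 1 thus held 4.42 times the myotube marker RNA of GM replicate 2, with single markers 3.72 to 6.88 times higher. Markers of endothelial and neural cells summed to at most 5.01 in any library, and those of blood cells to at most 26.4. Fibroblast and adipogenic markers summed to at most 100.2, nearly all of it Pdgfra. In such bulk samples, fewer cells of a type and less RNA per cell cannot be told apart.

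H19 and Malat1 rose with differentiation, Neat1 was 1.55 times higher in 3d DM without passing the test, Gas5 was 1.81 times higher in GM without passing it, and Meg3 and Rian were at or next to 0 in both states. The 2 members called higher of 4 tested stand beside 7.01% of all tested genes called higher, and the 0 called lower beside 9.96%. Here and for the gene lists below, wherever 0 were called in a direction, limma also gave 0 genes in that direction at an unadjusted p under 0.05. With 12.0% of tested genes called higher after median-of-ratios rescaling, Neat1 was called as well. All 4 tested members separated the states, with both 3d DM libraries above both GM libraries for H19, Malat1 and Neat1, as for 16.8% of tested genes, and below them for Gas5, as for 37.0%. The median log2 difference of the 4 was 0.90, beside -0.22 over all tested genes. An exact permutation test on 2 against 2 libraries cannot go below p = 0.333, the value each of the 4 gave (two-sided), so calls rest on limma, which borrows its error from genes of like intensity. None of the 31194, 26568, 31221 and 23785 m6A peak lines of the 4 immunoprecipitated libraries named one of the 6 or lay on its locus and strand. The peak lists hold protein-coding transcripts only, so m6A on these RNAs was not measured.

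**Figure D1:**
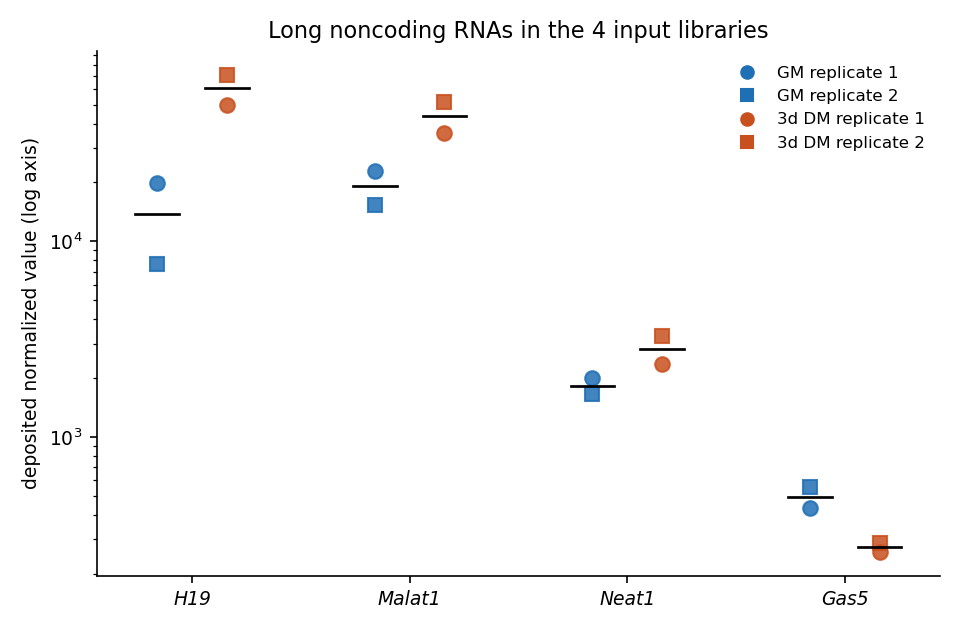
Normalised values of the 4 tested RNAs in each input library on a log axis; circles and squares are replicates 1 and 2, blue is GM, orange is 3d DM, and the black bars are means. H19, Malat1 and Neat1 are higher in both 3d DM libraries than in both GM libraries and Gas5 is lower in both; Meg3, at 0 in every library, and Rian, at 0 in all but GM replicate 2, are not drawn.

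H19 (Entrez 14955) is transcribed from the minus strand at chr7:142575530-142578146 of GRCm38, and its 2 RefSeq transcripts are 2284 and 2288 nt long. Its normalised values were 19859.8 and 7622 in GM replicates 1 and 2, against 49922.5 and 71139 in 3d DM replicates 1 and 2. Both 3d DM libraries were well above both GM libraries, and the GM libraries differed by more between themselves, 2.61 times, than the 3d DM libraries did, 1.42 times. Means were 13741 ± 8654 in GM and 60531 ± 15003 in 3d DM (SD, n = 2), a ratio of 4.41. The log2 difference was 2.28 (SE 0.40, limma with Benjamini-Hochberg adjustment, adjusted p = 3.19e-07), or 2.50 above the median gene. H19's own replicates gave an SE of 0.74, larger than the one borrowed by limma. The adjusted p depended on the scaling, though the call did not. After median-of-ratios rescaling the log2 difference was 2.50 (SE 0.43, limma adjusted p = 0.0129). Trimmed-mean rescaling gave 2.51 (limma adjusted p = 0.0130), and rescaling without the largest entry gave 2.38 (limma adjusted p = 0.00601). GM replicate 1, in which H19 was the higher of the GM libraries, is also the one with more myotube marker RNA, and the part of that in the H19 values was not tested. Without GM replicate 2 the log2 difference was 1.59, still called by limma, and without 3d DM replicate 1 or 2 it was 2.53 or 2.02 and no longer called (adjusted p = 0.123 and 0.132). H19 alone held 0.158% and 0.0608% of the GM totals and 0.398% and 0.568% of the 3d DM totals. Per kilobase of its longest transcript it ranked 86 among 22987 protein-coding and long noncoding genes in GM and 7 in 3d DM.

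H19 also carries a microRNA in its first exon, miR-675. Its entry in the table, Mir675, was listed at 0 in all 4 libraries, which were selected for poly(A) RNA and therefore are no measure of the small RNAs. Both mature arms are shown, from RefSeq on GRCm38.p6, because they are the defined sequence product of this transcript, with the seed, bases 2 to 8, in capitals:
mmu-miR-675-5p: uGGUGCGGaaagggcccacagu
mmu-miR-675-3p: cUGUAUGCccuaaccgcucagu
The arms have different seeds. From a list of reported miR-675 targets and let-7 genes tied to H19, 7 of 10 were tested. Of these 0 were called higher and 2 lower, beside 7.01% and 9.96% of all tested genes. Hmga2, a chromatin protein of proliferating cells and a let-7 target, had values of 2362 and 3218 in GM against 160.9 and 168.3 in 3d DM, and fell by 4.06 on the log2 scale (SE 0.44). Cdc6, which loads the replicative helicase, had values of 226.8 and 402.4 in GM against 15.0 and 39.8 in 3d DM, and fell by 3.57 (SE 0.52). The list's median difference was -0.52, beside -0.22 for all tested genes.

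H19's chromosomal neighbours differed among themselves. Of 13 genes of the H19-Igf2 and Kcnq1 domains in the table, 8 were tested, with a median log2 difference of 0.54. Calls were 3 higher and 0 lower, beside 7.01% and 9.96% of all tested genes. Igf2, the paternally expressed growth factor, had values of 135.9 and 60.2 in GM against 982.1 and 2037 in 3d DM. It rose by 3.95 on the log2 scale (SE 0.45), more than H19 did, and like H19 it was higher in GM replicate 1, by 2.26 times. Tnnt3, the fast skeletal troponin T next to the locus, had values of 596.8 and 111.4 in GM against 13508 and 12976.6 in 3d DM, a difference of 5.67 (SE 0.42). Cdkn1c, the maternally expressed cell cycle inhibitor p57, had values of 26.5 and 9.05 in GM against 37.1 and 103.8 in 3d DM, a difference of 1.93 (SE 0.62, limma adjusted p = 0.0142). Kcnq1ot1, the antisense long noncoding RNA of the neighbouring domain, had a difference of -0.20 (SE 0.54) and overlapping groups. The other genes of these domains included Kcnq1, Ascl2 and Phlda2, at or near 0, and Cd81 and Nap1l4, whose groups overlapped. Ins2, below the filter, had 0 and 1.00 in GM against 22.6 and 20.4 in 3d DM. Lsp1, tested without a call, and Slc22a18, below the filter, also had both 3d DM libraries above both GM libraries. Among 21 other imprinted genes, 12 were tested, 2 were called higher and 1 lower, beside the same 7.01% and 9.96%. The called genes were Dcn, a matrix proteoglycan (2.59), Dhcr7, the last enzyme of cholesterol synthesis (1.53), and Peg10, a retrotransposon-derived gene (-2.002). Dcn differed 25.1 times between the GM libraries, and its groups overlapped. After median-of-ratios rescaling 1 of the 12 was called higher and 1 lower.

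**Figure D2:**
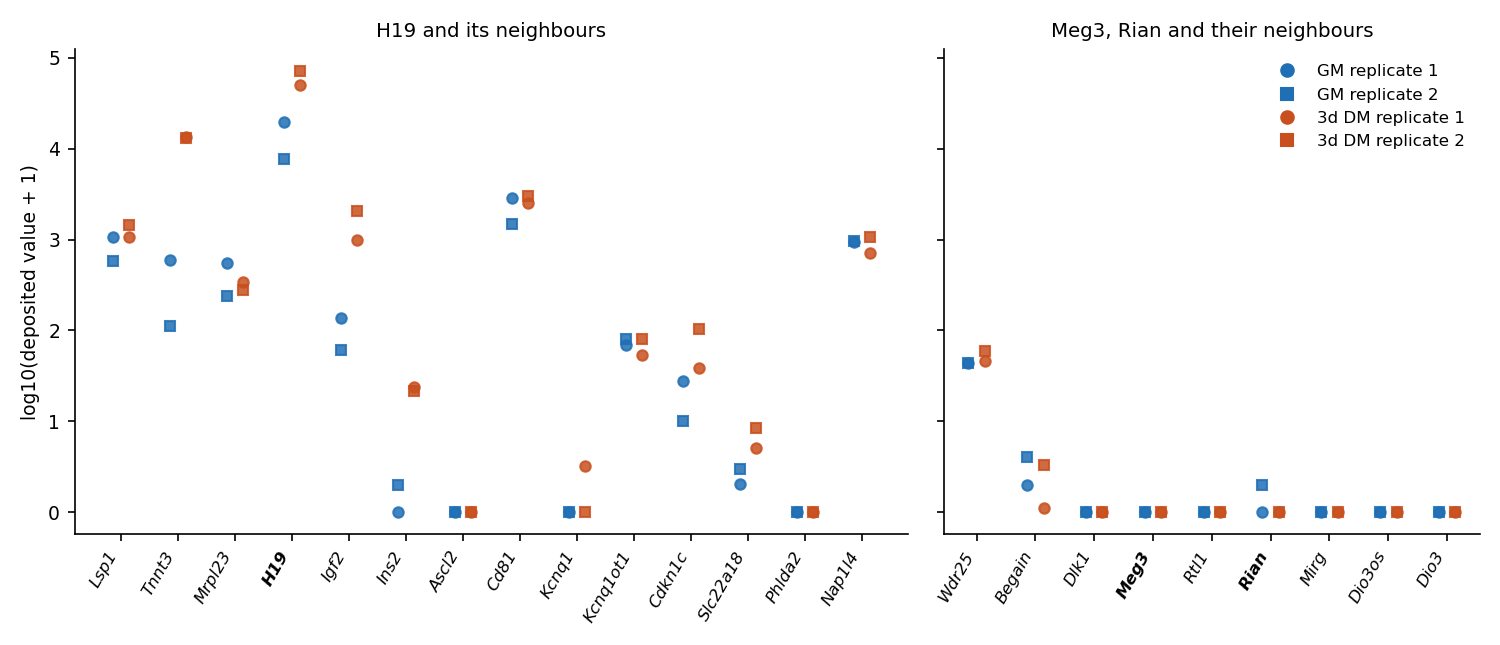
Log10(value + 1) of genes in genome order around H19 (left) and around Meg3 and Rian (right), one point for each input library, without distances to scale. Around H19, Tnnt3 and Igf2 are higher in 3d DM while Cd81 and Nap1l4 overlap; around Meg3, all genes between Dlk1 and Dio3 are at 0 but for Rian in GM replicate 2.

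Meg3 and Rian were next to absent from the values. Meg3 (Entrez 17263, plus strand, chr12:109540996-109571729, 3 RefSeq transcripts of 1913 to 11473 nt) was listed at 0 in all 4 libraries. Rian (Entrez 75745, plus strand, chr12:109603945-109661716, 1 transcript of 3584 nt) was listed at 0 in GM replicate 1 and in both 3d DM libraries and at 1.00 in GM replicate 2, where 1.00 is the smallest step between low values. Neither allows a comparison of states. The same held across the domain, where Dlk1, Rtl1, Dio3, Dio3os and Mirg, 5 of its 7 other genes in the table, were at 0 throughout. Begain, at its edge, had values of 0.11 to 3.01, and Wdr25, just outside it, was tested and had 43.0 and 43.1 in GM against 44.8 and 58.4 in 3d DM (log2 difference 0.24, SE 0.58). The microRNA and snoRNA genes inside Meg3 and Rian that the table lists, 2 in Meg3 and 9 in Rian, were at 0 in every library as well. A listing at 0 is common in this class, since 1066 of 2077 RefSeq long noncoding genes in the table were at 0 in all 4 libraries, as were 5737 of 20979 protein-coding genes. The window around Meg3's first RefSeq start (GRCm38.p6, plus strand, chr12:109540746-109541045, 250 bases before to 50 after the start) is shown because the gene had no value from it in either state; it holds no E-box, the CANNTG site of MyoD family factors, and the letters TATAAA on each strand, overlapping, with the plus-strand match beginning 25 bases before the start:
Meg3: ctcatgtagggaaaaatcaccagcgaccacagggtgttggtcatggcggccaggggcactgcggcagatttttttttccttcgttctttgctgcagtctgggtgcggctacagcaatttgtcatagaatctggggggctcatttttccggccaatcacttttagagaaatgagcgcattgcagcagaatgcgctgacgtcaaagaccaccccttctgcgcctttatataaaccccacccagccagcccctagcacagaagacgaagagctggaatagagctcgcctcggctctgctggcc
TATAAA on either strand was found in 13.6% of the 32851 RefSeq windows of this length, and 72.3% held an E-box.

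Malat1 (Entrez 72289, minus strand, chr19:5795690-5802672) has 1 RefSeq transcript of 6983 nt, the length of its locus. Its normalised values were 22939.9 and 15339.9 in GM replicates 1 and 2, against 35580.0 and 51431 in 3d DM replicates 1 and 2. The groups did not overlap, and the replicates of a state differed 1.495 times in GM and 1.45 times in 3d DM. Means were 19139.9 ± 5374 and 43505 ± 11208 (SD, n = 2), a ratio of 2.27. Malat1 rose by 1.19 on the log2 scale (SE 0.40, limma with Benjamini-Hochberg adjustment, adjusted p = 0.0211), or by 1.41 above the median gene. This call was near the threshold: without GM replicate 2 the adjusted p was 0.180, without 3d DM replicate 1 it was 0.198 and without 3d DM replicate 2 it was 0.261, while the log2 difference stayed between 0.90 and 1.48. It also missed the threshold without the filter (0.104) and without the intensity trend (0.0614). Malat1's mature 3′ end is not a poly(A) tail, so a poly(A)-selected library need not recover it fully, and how that recovery differed between libraries was not tested. The window around its start (GRCm38.p6, minus strand, chr19:5802623-5802922) is shown because Malat1 is the called member with a window in the RefSeq table. Its E-box, in capitals, begins at base 42 of the transcript and reads CAGCTG, a form that 16.3% of all windows hold, and a match to the MEF2 consensus, found in 3.19% of all windows, begins 119 bases before the start:
Malat1: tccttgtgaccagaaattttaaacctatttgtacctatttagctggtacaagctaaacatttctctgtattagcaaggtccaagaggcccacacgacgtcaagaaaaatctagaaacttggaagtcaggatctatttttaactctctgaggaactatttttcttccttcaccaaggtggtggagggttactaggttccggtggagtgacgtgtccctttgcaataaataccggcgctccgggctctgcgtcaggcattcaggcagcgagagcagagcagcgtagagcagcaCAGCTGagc
A match is a description of the letters and no measurement of binding.

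Of the proteins of the nuclear speckles, where Malat1 resides, all 10 on the list were tested, 0 were called higher and 2 lower, beside 9.96% of all tested genes called lower. Differences below 0 were found for 9 of 10, beside 63.2% of all tested genes, with a median of -0.65, beside -0.22. Srsf2, a serine- and arginine-rich splicing factor, had values of 2321 and 3289.5 in GM against 956.0 and 1613 in 3d DM and fell by 1.15 on the log2 scale (SE 0.42). Srsf1, a factor of the same family, fell by 1.14 (SE 0.42). Srrm2, the scaffold of the speckle and the most abundant of the list, had 3513 and 4137 in GM against 3114 and 4189 in 3d DM, a difference of -0.08 with overlapping groups. After median-of-ratios rescaling 7 of 10 lay below 0 and 1 was called lower.

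Neat1 (Entrez 66961, minus strand, chr19:5824708-5845480) has a short and a long RefSeq transcript, 3185 and 20771 nt, which the gene-level value does not separate. Its normalised values were 1993 and 1649 in GM replicates 1 and 2, against 2344 and 3294 in 3d DM replicates 1 and 2. The lower 3d DM library was above the higher GM library, by less than the distance between the 3d DM libraries. Means were 1821 ± 244 and 2819 ± 672 (SD, n = 2). The log2 difference of 0.62 (SE 0.41) did not pass the test (limma with Benjamini-Hochberg adjustment, adjusted p = 0.371). This call depended on the scaling. After median-of-ratios rescaling the 4 values were 1695, 1648, 3015 and 2987, with means of 1671 ± 32.8 in GM and 3001 ± 19.99 in 3d DM (SD, n = 2), and the log2 difference of 0.84 was called by limma (SE 0.16, adjusted p = 0.0166). The short transcript ends in a poly(A) tail and the long one does not, so a value from poly(A)-selected RNA is not a full measure of the form that builds paraspeckles.

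Of the proteins that assemble on Neat1, all 15 on the list were tested, 0 were called higher and 2 lower, a share of 13.3% beside 9.96% of all tested genes. Differences below 0, most of them not called, were found for 14, beside 63.2% of all tested genes, and the median difference was -0.79, beside -0.22. Sfpq, a core paraspeckle protein, had values of 2547 and 3483 in GM against 1087 and 1856 in 3d DM, a difference of -1.07 (SE 0.42, limma adjusted p = 0.0571). Its partner Nono had 4453 and 3996 in GM against 1924 and 2822 in 3d DM, a difference of -0.86 (SE 0.41, limma adjusted p = 0.154). Both missed the threshold. The called genes were Dazap1, an RNA-binding protein, which fell by 1.36 (SE 0.43), and Nudt21, a cleavage factor subunit that guides the choice of poly(A) site, which also fell by 1.36 (SE 0.46). Hnrnpk, a paraspeckle protein that acts in Neat1 processing, differed by -0.55 (SE 0.41) without a call. Median-of-ratios rescaling left 13 of 15 below 0, with 4 called lower.

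Gas5 (Entrez 14455, plus strand, chr1:161034601-161038539) has 8 RefSeq transcripts of 282 to 550 nt. Its normalised values were 430.8 and 555.9 in GM replicates 1 and 2, against 258.3 and 287.6 in 3d DM replicates 1 and 2. Both 3d DM libraries lay below both GM libraries, so the RNA named for growth arrest had its lower values in the arrested, differentiated state. Means were 493.4 ± 88.5 in GM and 273.0 ± 20.7 in 3d DM (SD, n = 2). The log2 difference was -0.84 (SE 0.45, limma with Benjamini-Hochberg adjustment, adjusted p = 0.224), or -0.62 against the median gene, and it did not pass the test. The adjusted p was 0.0776 to 0.848 over 13 alternatives, and 0 of them called Gas5. Zbtb37, on the opposite strand, overlaps the locus, and the sources do not say whether counting used strand. It had values of 38.9 and 38.1 in GM against 26.5 and 25.6 in 3d DM. Reads of overlapping genes could be shared, and this was not tested. Of 8 snoRNAs annotated inside Gas5 only Snord47 was in the table, at 3.01 to 5.93.

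Gas5 is known as a 5′ TOP RNA, a class whose transcripts start with a C followed by pyrimidines and whose translation depends on growth signals. The window around the start that carries this feature (GRCm38.p6, plus strand, chr1:161034916-161035215) is shown for that reason, and the transcript opens with ctttcggagctg. A C and 4 pyrimidines at the start were found in 2.51% of all RefSeq windows. The window holds no E-box and 19 CpG dinucleotides, and 28.1% of all windows hold at least as many:
Gas5: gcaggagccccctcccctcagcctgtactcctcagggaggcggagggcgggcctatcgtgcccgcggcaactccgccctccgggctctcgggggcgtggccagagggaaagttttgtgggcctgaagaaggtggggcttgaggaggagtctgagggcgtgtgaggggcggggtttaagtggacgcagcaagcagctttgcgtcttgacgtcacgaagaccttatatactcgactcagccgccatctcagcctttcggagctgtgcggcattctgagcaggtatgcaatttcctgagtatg
The other Gas5 window, upstream of this one, holds 2 E-boxes and 33 CpG dinucleotides and does not start with this pattern.

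Gas5 lay among the other noncoding snoRNA hosts. Of 17 such genes besides Gas5, 13 were tested. Calls were 0 higher and 1 lower, beside 7.01% and 9.96% of all tested genes. All 13 differences were below 0, beside 63.2% of all tested genes, and their median was -0.69, beside -0.22. Counted from the lowest, Gas5 was number 5 of the 14. After median-of-ratios rescaling 10 of the 13 were below 0, with a median of -0.47, and Snhg5 was no longer called. Snhg5 had the largest difference of the 14 on the deposited scale, with values of 333.0 and 539.9 in GM against 139.6 and 180.5 in 3d DM, and fell by 1.41 on the log2 scale (SE 0.46, limma adjusted p = 0.0176). Snhg1, host of several box C/D snoRNAs, had 301.4 and 498.7 in GM against 178.1 and 240.5 in 3d DM, a difference of -0.90 (SE 0.46, limma adjusted p = 0.192). Zfas1, the most abundant of the group, had 634.8 and 770.7 in GM against 394.3 and 472.7 in 3d DM, a difference of -0.69 (SE 0.44). All 3 had both 3d DM libraries below both GM libraries, as Gas5 did.

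**Figure D3:**
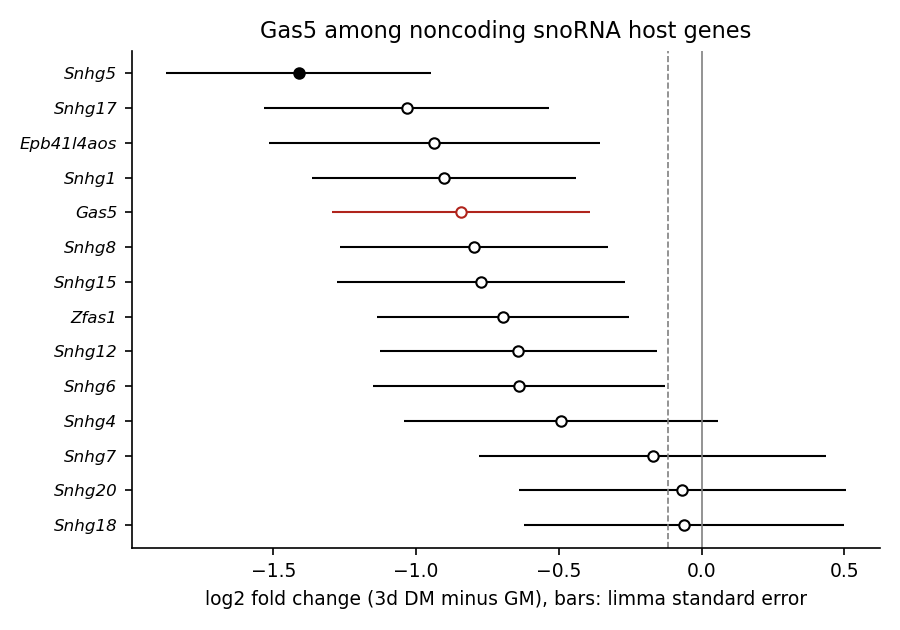
Log2 difference (3d DM minus GM) of 14 noncoding snoRNA host genes, sorted, with limma standard errors as bars. Filled points passed the test and Gas5 is red. The dashed line is at -0.12, the median of all tested genes after rescaling without the largest entry. Points are on the deposited scale, where that median was -0.22. All 14 points lie below 0 and Snhg5 is the 1 filled point.

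Genes tied to Gas5's named roles, the growth-arrest-specific genes and the glucocorticoid response that Gas5 can blunt as a decoy of the receptor, went in both directions. Of 9 genes 8 were tested, with a median difference of -0.69. Calls were 1 higher and 1 lower, beside 7.01% and 9.96% of all tested genes. Tsc22d3, the glucocorticoid-induced leucine zipper, had values of 381.7 and 292.0 in GM against 707.1 and 949.4 in 3d DM and rose by 1.29 (SE 0.44). Gas2, a growth-arrest-specific actin-associated protein, had 153.6 and 113.4 in GM against 21.0 and 38.0 in 3d DM and fell by 2.18 (SE 0.55). Gas1, a membrane protein of quiescent cells and the most abundant of the list, had 1333 and 692.5 in GM against 359.5 and 701.4 in 3d DM, with overlapping groups. Among 6 chromatin partners of long noncoding RNAs, 0 were called higher and 2 lower, beside the same 7.01% and 9.96%. The called genes were Suv39h1 (-1.93, SE 0.46) and Ezh2 (-1.89, SE 0.45), both histone methyltransferases, while Suz12, the most abundant, differed by -1.06 (SE 0.44) without a call.

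Ratios between the RNAs within a library do not change when the whole library is multiplied by 1 factor, and all 6 pairs separated the states. Any adjustment in the deposited values that differed between genes would remain in the ratios. H19 to Malat1 was 0.866 and 0.497 in GM against 1.40 and 1.38 in 3d DM. The ratios are not per kilobase, so a ratio on either side of 1 does not tell which RNA was more abundant. Per kilobase of the longest transcript, H19 was above Malat1 in every library. H19 to Gas5 was 46.1 and 13.7 in GM against 193 and 247 in 3d DM. Each RNA was higher against every later one of the order H19, Malat1, Neat1, Gas5 in 3d DM than in GM. That is the order of their log2 differences, so these directions follow from those differences and are no further evidence. Malat1 to Neat1, the neighbours on chromosome 19, gave 11.5 and 9.30 in GM against 15.2 and 15.6 in 3d DM. H19 to Neat1 gave 9.96 and 4.62 against 21.3 and 21.6. Malat1 to Gas5 gave 53.2 and 27.6 against 138 and 179, and Neat1 to Gas5 gave 4.63 and 2.97 against 9.07 and 11.5. The ratios are given as a description and were not tested.

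**Figure D4:**
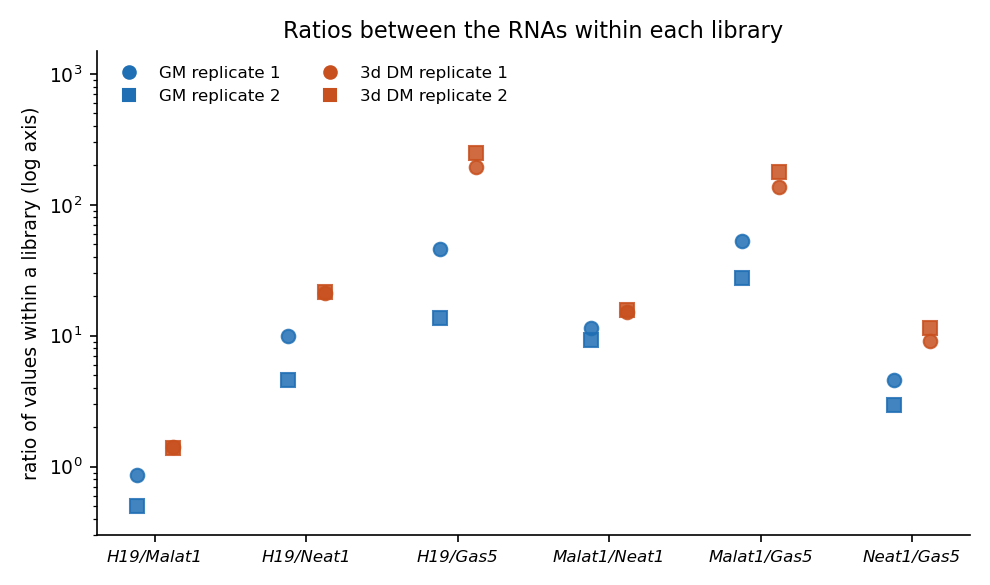
Ratio of 1 RNA's normalised value to another's within each input library, on a log axis, for the 6 pairs; circles and squares are replicates 1 and 2, blue is GM and orange is 3d DM. Every ratio is higher in both 3d DM libraries than in both GM libraries. Values are not per kilobase, so a ratio of 1 does not mark equal levels.

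Levels of different genes were compared per kilobase of the longest RefSeq transcript. In GM the values per kilobase were 8680 and 3331 for H19, 3285 and 2197 for Malat1, 783.4 and 1011 for Gas5 and 96.0 and 79.4 for Neat1. In 3d DM they were 21819 and 31092 for H19, 5095 and 7365 for Malat1, 469.7 and 522.8 for Gas5 and 113 and 159 for Neat1. The order was thus H19, Malat1, Gas5, Neat1 in both states, but in GM the difference in means of H19 and Malat1 was smaller than the SD of H19, 3782. The last place depends on the transcript: per kilobase of the short Neat1 form, Neat1 had a mean of 572 ± 76.5 in GM, below the 897 ± 161 of Gas5, and of 885 ± 211 in 3d DM, above the 496 ± 37.6 of Gas5 (SD, n = 2). Among 2072 long noncoding genes ranked per kilobase, H19 held rank 1 in both states, Malat1 rank 3 in GM and 2 in 3d DM, Gas5 rank 7 in both, and Neat1 rank 28 and then 20.

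The genes with the most similar pattern over the 4 libraries were found by the root-mean-square distance of centred log2(value + 1). For H19 they were Neurl1a (0.055), Cand2 (0.057) and Grtp1 (0.065), with 32 genes within a distance of 0.2. For Malat1 they were Slc9a3r2 (0.019), Zeb1 (0.021) and Slc6a6 (0.032), among 252 within 0.2. Neat1 was closest to Ciao3 (0.0081), Ttll5 (0.012) and Fbxl17 (0.019), among 899, and Gas5 to Tgfb1i1 (0.023), Lin7c (0.026) and Fancm (0.045), among 582. With 4 libraries such likeness is common for small changes, and H19, whose pattern includes the split between the GM libraries, had the fewest close genes. Neurl1a, for example, had values of 566.0 and 221.8 in GM against 1321 and 1941 in 3d DM.

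Other noncoding RNAs, most of them long, gave a background for the 6. Of 19 further named ones in the table, 12 were tested, 1 was called higher and 1 lower, beside 7.01% and 9.96% of all tested genes. Among the 19, RefSeq types Rmrp, Rpph1 and Terc as RNase MRP, RNase P and telomerase RNA, not as long noncoding. Rmrp and Rpph1 were tested and not called. Trp53cor1, a p53-induced RNA next to Cdkn1a, had values of 19.02 and 10.04 in GM against 64.5 and 109.8 in 3d DM and rose by 2.52 (SE 0.61). Mir17hg, host of a microRNA cluster tied to proliferation, had 39.6 and 95.3 in GM against 13.1 and 22.4 in 3d DM and fell by 1.78 (SE 0.61). Trp53cor1 and Mir17hg each reached the filter value, 25.1, in 1 state only. Under the study's filter of at least 3 libraries the list held no call. After median-of-ratios rescaling 2 of the list were called higher, and Mir17hg was no longer called. Xist, which coats the inactive X chromosome and was the most abundant of these, had 3711 and 4209 in GM against 3628 and 5895 in 3d DM, a difference of 0.23 (SE 0.41) with overlapping groups. Of all 132 tested RefSeq long noncoding genes, 17 were called higher and 11 lower, and the median difference was -0.05.

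**Figure D5:**
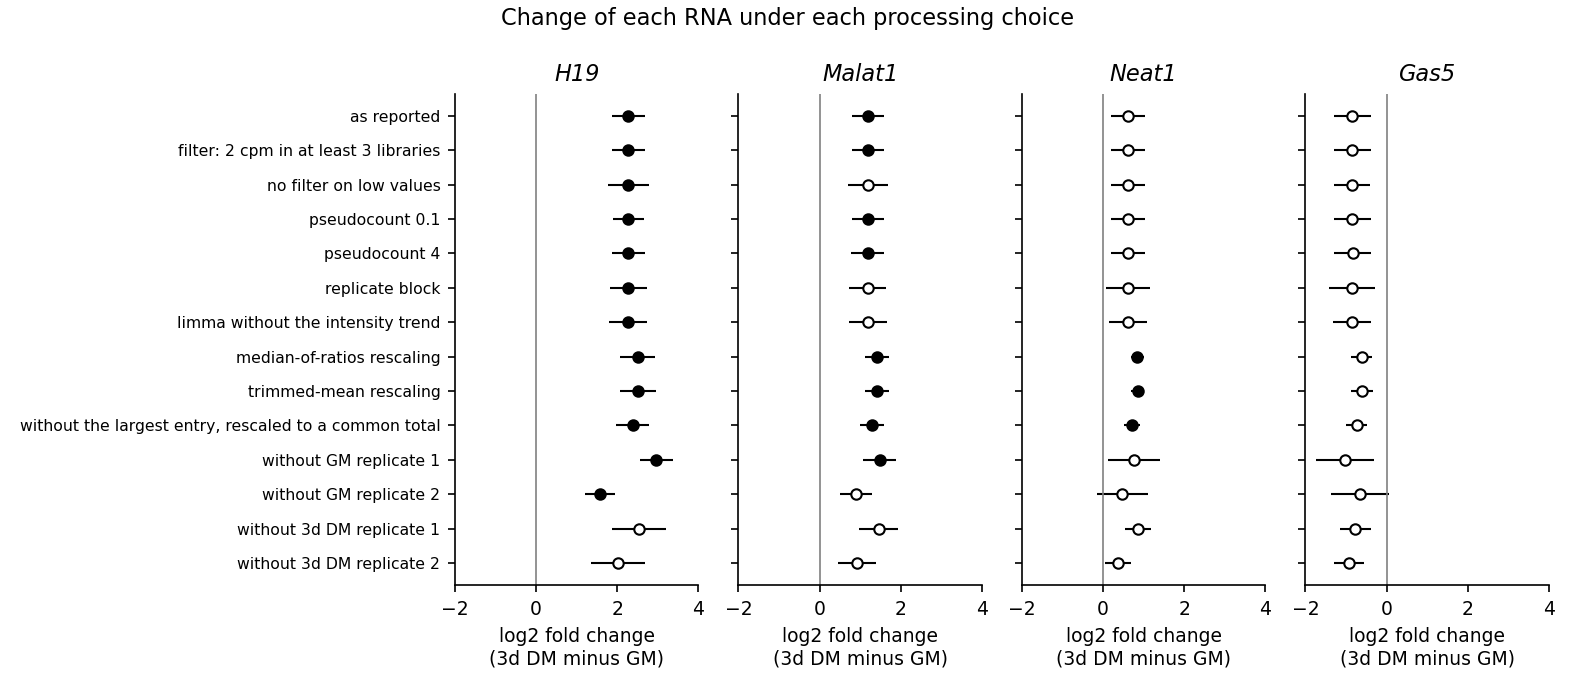
Log2 difference (3d DM minus GM) of each tested RNA with its limma standard error as reported and under 13 alternatives; filled points passed an adjusted p of 0.05 and open points did not. H19 stays between 1.59 and 2.97, Malat1 between 0.90 and 1.48, Neat1 between 0.37 and 0.86 and Gas5 between -1.03 and -0.61, and no point changes side of 0.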

How the data were processed

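Per the methods of the study, RNA of C2C12 myoblasts was poly(A)-selected, fragmented, converted to libraries with a stranded kit, and sequenced with and without m6A immunoprecipitation. The submitters' processing notes name HISAT2 2.1.0, edgeR and mm10 (GRCm38). The deposited expression table holds a trimmed-mean-normalised signal per Entrez gene that the authors made with edgeR. Low values of GM replicate 2 were within 0.05 of whole multiples of 1 step for 98.3% of values, against 14.2% to 47.5% in the other libraries, so reads could not be recovered and no count test was made. The m6A peak lists, which the authors called per sample with exomePeak, hold a p-value and a fold enrichment for each deposited peak and were searched only for the 6 loci.

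Genes reaching 2 cpm in 2 or more libraries were tested on log2(value + 1) with limma 3.58.1 in R 4.3.3, with variance modelled on intensity and p-values adjusted by Benjamini-Hochberg over all 11406 genes, 2 against 2 libraries. The study's filter, in at least 3 libraries, was an alternative, as were no filter, pseudocounts of 0.1 and 4, no trend, a replicate block, 3 rescalings and leaving out each library. limma SEs ran from 0.40 to 0.87 and follow intensity, not the spread of the gene's own replicates. Symbols, loci and sequences are from RefSeq (GRCm38.p6), and 4 of the 6 RNAs had promoter windows. 0 columns were left unmapped.

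The members and gene lists were chosen with earlier results of these data known. Named genes were the 6, chosen partners, the most abundant and the most changed tested gene of each list, and the 3 nearest patterns. Other genes that make up a count of 5 or fewer were named after their values were seen. So were examples of overlapping, near-0 or separated neighbours, and noncoding RNAs not typed as long.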

Additional observations from a re-analysis of the deposited data

How the results depend on the processing

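None of the 13 alternatives changed the direction of H19, Malat1, Neat1 or Gas5. Their order per kilobase of the longest transcript was recomputed under the 3 rescalings and with each library left out, and did not change there. H19 ranged over 1.59 to 2.97 on the log2 scale when 1 library was left out and lost its limma call without 3d DM replicate 1 (2.53, adjusted p = 0.123) or 3d DM replicate 2 (2.02, adjusted p = 0.132). The lone sample of a state is then assumed to vary like the other group. Malat1 kept 1.19 without the filter (limma adjusted p = 0.104), with the replicate block (0.0759) and without the intensity trend (0.0614), each short of the threshold, and ranged over 0.90 to 1.48 with 1 library left out. Neat1 passed it with 0.84, 0.85 and 0.72 after median-of-ratios, trimmed-mean and largest-entry rescaling (limma adjusted p = 0.0166, 0.0159 and 0.0325). Members called higher numbered 1 in place of 2 without the filter, with the block or without the trend, and 0 to 2 with 1 library left out, 0 without either 3d DM replicate. Over all genes, those called higher numbered 524 under the 3-library filter, 1366 and 1386 after median-of-ratios and trimmed-mean rescaling, and 101 to 679 with 1 library left out. Those called lower numbered 705 with the block and 44 to 573 with 1 left out. Over the gene lists, 12 calls higher became 2 to 11 and 15 calls lower became 3 to 10 with 1 library left out, and 9 lower with the block. Same-numbered libraries deviated together with a correlation of 0.29 over genes in 2 pairs, which does not show that numbers pair the samples. The unknown read depth limits what 0 means for Meg3 and Rian.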
